A study of Mus musculus with 11 samples.

Results

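The 9 genes described here encode the Hedgehog and parathyroid hormone-related protein (PTHrP) signals of cartilage: the ligand Ihh, the receptor Ptch1, the ligand-binding inhibitor Hhip, the signal transducer Smo, the transcription factors Gli1, Gli2 and Gli3, the PTHrP gene Pthlh and its receptor gene Pth1r. They were taken by listed symbol from the 23420 gene symbols of the deposited count table, with no threshold on a measured value. All 9 were found, and all 9 were among the 14531 genes that passed the filter on low counts. The tissue was the whole mandibular condylar fibrocartilage, which caps the jaw joint, taken from female C57BL/6 mice, and its poly-A RNA was sequenced in 11 samples. The 4 groups were estrogen receptor alpha knockout (ERalphaKO, KO) mice given estradiol (KO E2, n = 3), KO mice given placebo (KO Plb, n = 3), wild-type mice given estradiol (WT E2, n = 3) and wild-type mice given placebo (WT Plb, n = 2). Mice of all groups were ovariectomized at 6 weeks of age, received their pellet for 1 week and were 7 weeks old at harvest, and the estradiol pellet held 0.01 mg for release over 60 days. The labels name no Cre driver or tissue restriction for the knockout, and they do not say that each sample was a different animal, so each p-value is set against a spread among samples that could be partly technical.

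In growing cartilage Ihh is made by prehypertrophic chondrocytes, the cells about to enlarge and mineralize. Its binding to Ptch1 releases Smo, which turns Gli proteins into activators, and Gli1, Ptch1 and Hhip are themselves induced by the pathway and are commonly read as its output. Ihh also maintains PTHrP production in the cells near the joint surface, and PTHrP acting on Pth1r holds chondrocytes back from hypertrophy, which closes a feedback loop between both signals.

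Ihh and Pth1r differed between the genotypes, and the sequences upstream of their annotated starts are shown for that reason. Each is the 250 bases before a transcription start in the mouse build GRCm38.p6 from RefSeq, on the minus strand, written 5′ to 3′ with CpG dinucleotides in capitals. The Ihh sequence lies at chr1:74951673-74951922. The 3 Pth1r sequences lie at chr9:110747146-110747395, chr9:110743687-110743936 and chr9:110742611-110742860. Counts per gene cannot tell which of the Pth1r starts was used.
Ihh: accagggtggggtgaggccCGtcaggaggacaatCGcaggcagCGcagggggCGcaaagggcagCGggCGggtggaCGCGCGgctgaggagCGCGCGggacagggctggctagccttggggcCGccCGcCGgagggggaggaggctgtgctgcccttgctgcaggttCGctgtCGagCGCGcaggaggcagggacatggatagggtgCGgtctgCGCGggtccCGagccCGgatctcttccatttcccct
Pth1r, start 1: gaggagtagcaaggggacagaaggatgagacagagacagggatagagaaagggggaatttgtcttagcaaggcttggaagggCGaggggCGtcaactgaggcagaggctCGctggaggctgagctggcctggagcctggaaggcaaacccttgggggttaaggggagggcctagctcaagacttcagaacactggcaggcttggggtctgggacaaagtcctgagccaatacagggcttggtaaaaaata
Pth1r, start 2: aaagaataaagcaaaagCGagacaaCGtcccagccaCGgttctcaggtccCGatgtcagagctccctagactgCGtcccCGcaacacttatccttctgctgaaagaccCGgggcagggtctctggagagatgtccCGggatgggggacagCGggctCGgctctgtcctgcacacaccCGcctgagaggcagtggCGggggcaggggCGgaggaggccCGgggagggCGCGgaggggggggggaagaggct
Pth1r, start 3: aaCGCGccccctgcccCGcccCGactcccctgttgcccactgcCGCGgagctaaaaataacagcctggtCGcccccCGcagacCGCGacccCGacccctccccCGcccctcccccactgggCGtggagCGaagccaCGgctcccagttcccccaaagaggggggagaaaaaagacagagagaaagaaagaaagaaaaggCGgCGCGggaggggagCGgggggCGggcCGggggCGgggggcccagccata
The Ihh sequence holds 24 CpG, and the Pth1r sequences hold 3, 16 and 22, where the median over the same 250 bases of 32851 mouse promoters is 6 and 49.6% of them hold 5 or fewer. The upstream sequences of Ihh and of Pth1r starts 2 and 3 are therefore richer in CpG than the median promoter, and that of Pth1r start 1 is not. In the 300-base promoters (250 bases before to 50 after the start) matched to 8 of the 9 genes, letters were searched on both strands. These were 10 promoters in all, 3 of them of Pth1r and none of Gli1. The Gli consensus GACCACCCA was in 0 of the 10, and in 0.253% of all 32851 promoters. The full palindromic estrogen response element was in 0 of the 10, and in 0.07% of all promoters. Its core letters GGTCA, which the full element also contains, were in 1 of the 10, that of Gli3, and in 40.5% of all promoters. The low shares of the Gli consensus and the full element made 0 of the 10 likely in advance. No conclusion about these genes is drawn from either.

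Libraries held 15.7 to 25.5 M counts, so that 3 counts correspond to 0.118 to 0.204 counts per M (CPM, scaled by TMM normalization). The 95% intervals given below come from the edgeR fit and include the spread among libraries. Esr1, the gene for estrogen receptor alpha, had 2.55 to 4.86 CPM in the 6 KO libraries, against 6.43 to 13.4 CPM in the 5 WT libraries, with no overlap. For Esr1 the log2 difference, KO minus WT averaged over agents, was -1.25 ± 0.21 (SE; edgeR adjusted p = 0.00478). Reads remained in the KO, and which part of Esr1 was deleted is not given in the sources used here, so gene counts check the genotype only in part. The cartilage markers Col2a1 (3706 to 14720 CPM), Acan, Sox9 and Col10a1 were present in all 11 libraries. Libraries WT E2 3 and WT Plb 2 stood apart in the level of long genes: the rank correlation across 13672 genes between exon length and a gene's deviation from its mean was -0.428 and -0.391 in these 2 libraries, and between -0.0485 and 0.278 in the other 9. WT Plb 2 also had the highest share of counts on the ribosomal RNA gene Rn45s, at 16.04%, where the other 10 libraries had 1.83% to 3.13%. In bulk tissue, fewer cells of a type and less RNA per cell cannot be told apart.

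Per kb of exon, the median level over the 11 libraries was highest for Pth1r, at 223 CPM per kb. Smo followed at 36.9, Gli1 at 21.0, Ptch1 at 17.3, Ihh at 7.37, Hhip at 5.69, Gli3 at 4.71 and Gli2 at 3.74 CPM per kb, and Pthlh was lowest at 1.41. Pth1r (172 to 297 CPM per kb) did not overlap with Smo (29.6 to 42.1), nor Smo with Gli1 (15.3 to 23.8). Every later gene in that order overlapped with its neighbour over the 11 libraries. Lengths come from a GRCm38 annotation (GENCODE) and not from the build of the deposited counts, so the order is approximate.

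**Figure D1:**
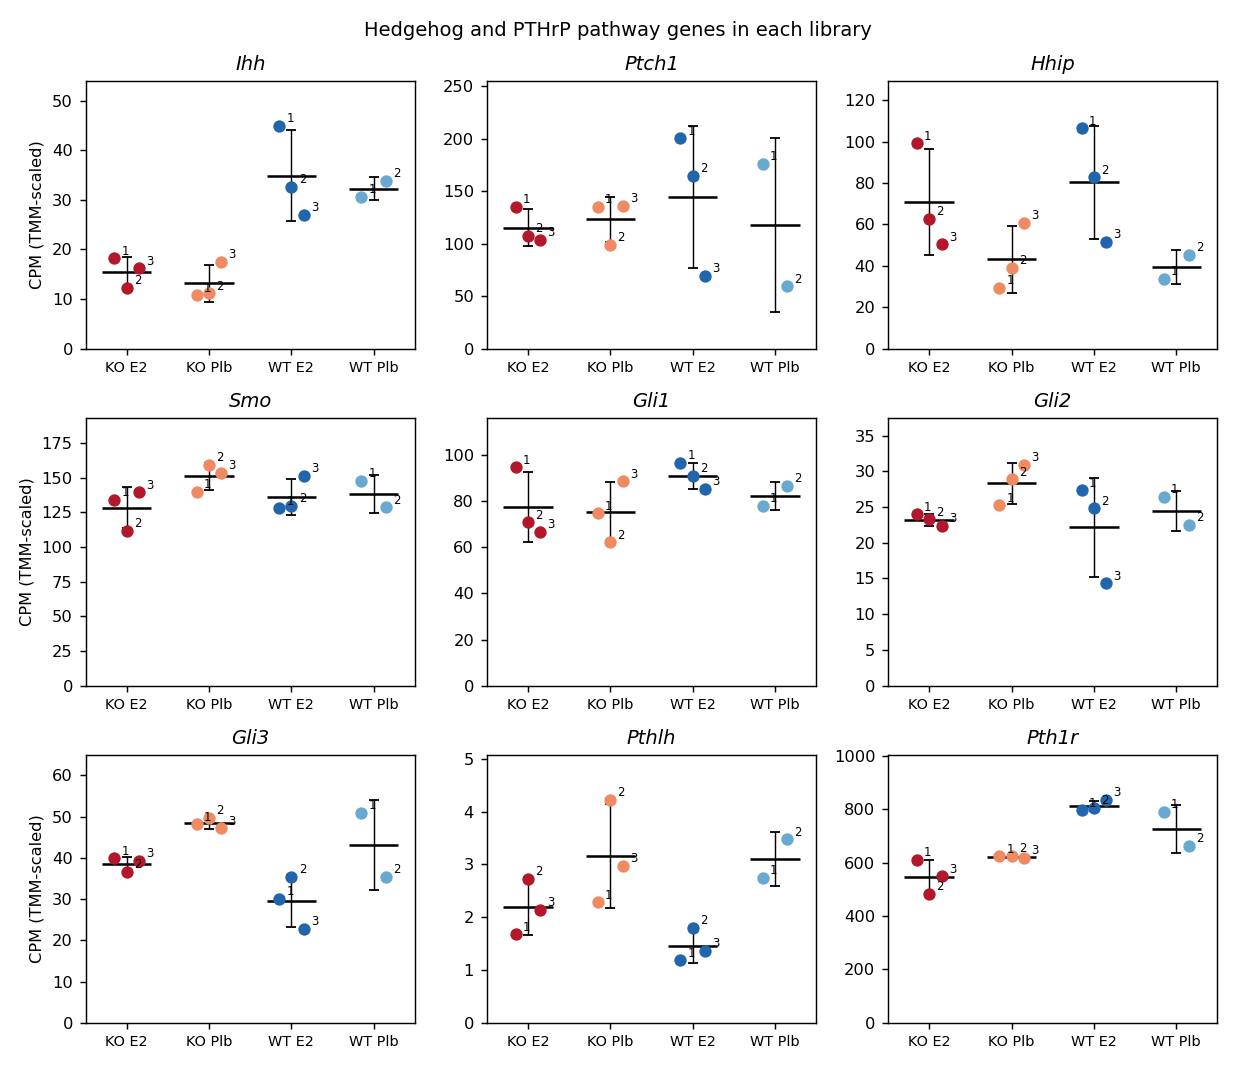
Level of each of the 9 genes in every library (vertical axes, CPM scaled by TMM, starting at 0) by group; points are libraries with their replicate number, the horizontal bar is the group mean and the error bar 1 SD (n = 3, or 2 for WT Plb). Ihh and Pth1r lie lower in both KO groups than in both WT groups with no overlap, and Ptch1 is lowest in WT E2 3 and WT Plb 2.

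The first question was what loss of estrogen receptor alpha did to the ligand. All 6 KO libraries had less Ihh than any of the 5 WT libraries, where 5.26% of all genes had no overlap in either direction. It had 18.2, 12.2 and 16.2 CPM in KO E2 and 10.8, 11.2 and 17.5 CPM in KO Plb, against 45.0, 32.7 and 27.0 CPM in WT E2 and 30.6 and 33.9 CPM in WT Plb. The highest KO and the lowest WT library, both under E2, had 18.2 and 27.0 CPM. Averaged over agents, Ihh was 2.34-fold lower in KO than in WT, a log2 difference of -1.23 ± 0.17 (SE; 95% interval -1.61 to -0.85; edgeR quasi-likelihood adjusted p = 0.00244). Under E2 the log2 difference in Ihh was -1.17 ± 0.23 (adjusted p = 0.00915). Under placebo it was as large, -1.29 ± 0.25, with an edgeR p of 0.000346 before adjustment and an adjusted p of 0.387, where 1 gene of all 14531 was called. DESeq2 called Ihh under placebo (adjusted p = 0.000725), and so did the authors' deposited table, with a log2 fold change of -1.21 and an adjusted p of 0.00025. The call in KO against WT under E2 and on average held under every alternative run, with Ihh between -1.36 and -0.94 on the log2 scale.

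Estradiol did not move Ihh detectably in either genotype. The log2 difference in Ihh, E2 minus placebo, was 0.24 ± 0.23 in KO (95% interval -0.27 to 0.76) and 0.12 ± 0.25 in WT (95% interval -0.44 to 0.67). The difference between these effects was 0.13 ± 0.34.

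Ihh is made by a subset of chondrocytes, and some genes of hypertrophic and mineralizing tissue were also lower in KO. Col10a1, the collagen of hypertrophic cartilage, had a log2 difference of -1.46 ± 0.17 in KO against WT averaged over agents (adjusted p = 0.00119), and Ibsp, a matrix protein of mineralizing tissue, one of -0.82 ± 0.09 (adjusted p = 0.000402). Ibsp averaged 2747 CPM in KO E2 and 2618 CPM in KO Plb, against 5991 CPM in WT E2 and 3745 CPM in WT Plb. Of the 11 measured hypertrophic and mineralizing genes, 0 were called higher and 2 lower, and 4 had a positive difference. Their median log2 difference was -0.15, beside 0.00 over all genes. Of 14 measured chondrocyte genes, 0 were called higher or lower (edgeR) and 2 had a positive difference, with a median of -0.45. At an unadjusted p under 0.05 there were 6 of the 14, beside 27.2% of all genes, and DESeq2 called 4 and limma-voom 0. The chondrocyte genes summed to 10658 to 21194 CPM in KO E2 and 11651 to 15141 CPM in KO Plb, against 16699 to 27898 CPM in WT E2 and 15458 to 26468 CPM in WT Plb, so the genotypes overlapped. The hypertrophic and mineralizing genes summed to 13263 to 15817 CPM in KO E2 and 15105 to 16313 CPM in KO Plb. In WT they summed to 18500 to 19894 CPM under E2 and 16427 to 21515 CPM under placebo, without overlap between the genotypes. Col2a1, the main cartilage collagen, had a log2 difference of -0.88 ± 0.29 that did not pass by edgeR (adjusted p = 0.0948) but passed by DESeq2 (adjusted p = 0.0433). Sox9, the chondrocyte transcription factor, differed by -0.05 ± 0.17.

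Setting Ihh against these genes within each library was done by log2 ratios, among 11 tested by permuting genotype within agent (exact, two-sided, 200 arrangements, smallest possible p 0.005). All 11 were chosen after the values were seen, so their p-values describe the ratios and are no independent support. The ratio of Ihh to Col10a1 averaged -5.57 in KO E2 and -5.78 in KO Plb, against -5.93 in WT E2 and -5.84 in WT Plb. Its difference, KO minus WT, was 0.21, and the genotypes overlapped (exact p = 0.185, adjusted p = 0.226 over the 11 ratios). Without WT Plb 2 the difference was 0.34 and passed (exact permutation, adjusted p = 0.0275), so whether the ratio passes rests on 1 library. For Ihh to Col2a1 the difference was -0.35 (exact p = 0.16, adjusted p = 0.22), and it was -0.61 without WT Plb 1, which passed (exact permutation, adjusted p = 0.0393). Against the summed chondrocyte genes the ratio of Ihh was lower in KO by a log2 difference of -0.69 (exact p = 0.01, adjusted p = 0.0183). That ratio fell short of the threshold without WT Plb 2 (-0.46, adjusted p = 0.0516), without KO Plb 1 (-0.62, adjusted p = 0.0524), without KO Plb 2 (-0.70, adjusted p = 0.0611), and without both WT E2 3 and WT Plb 2 (-0.46, adjusted p = 0.138). Against the summed hypertrophic and mineralizing genes, of which Col10a1 is 1, the difference in the ratio of Ihh was -0.89 (exact p = 0.01, adjusted p = 0.0183). Without WT E2 3 and WT Plb 2 it was -0.84 and did not pass (exact permutation, adjusted p = 0.055). Col10a1 averaged 716 CPM in KO Plb and 2158 CPM in WT E2, where the sum averaged 15673 and 19131 CPM. Other genes therefore made up most of the sum, among them genes of mineralizing tissue such as Ibsp. The ratio to this sum is thus not a ratio to hypertrophic cells alone.

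The genes with the pattern most like that of Ihh over the 11 libraries were Col10a1 (Pearson's r = 0.956), Aars (0.938), which encodes a tRNA synthetase, and Lect1 (0.936), which encodes the cartilage protein chondromodulin, among 12534 candidates. These values describe a ranking that includes the split between genotypes, and they carry no p-value.

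The second question was whether the genes read as Hedgehog output followed the ligand. Ptch1 and Hhip passed no comparison between genotypes, and neither did Gli1. Gli1, the transcriptional activator that the pathway induces, had 94.7, 70.8 and 66.8 CPM in KO E2 and 74.8, 62.2 and 88.6 CPM in KO Plb, against 96.7, 91.0 and 85.4 CPM in WT E2 and 78.1 and 86.6 CPM in WT Plb. The genotypes overlapped. The log2 difference in Gli1 averaged over agents was -0.18 ± 0.11, with a 95% interval of -0.42 to 0.05 (adjusted p = 0.302) that does not reach the difference in Ihh. Mrgprf (Pearson's r = 0.922), Fam149b (0.913) and P4ha2 (0.912), a collagen-modifying enzyme gene, had the patterns most like that of Gli1.

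Ptch1, the receptor, had 135, 108 and 103 CPM in KO E2 and 135, 98.8 and 136 CPM in KO Plb, against 201, 165 and 69.5 CPM in WT E2 and 176 and 59.3 CPM in WT Plb. The spread lay in WT, where 3 libraries were above every KO library and 2, WT E2 3 and WT Plb 2, were below all of them. The log2 difference in Ptch1 averaged over agents was -0.13 ± 0.35, with an interval of -0.95 to 0.68. Those 2 libraries are the ones with low levels of long genes. The Ptch1 exons span 7803 bases. Hhip, with 9074 bases the longest of the 9 genes, had 45.4 CPM in WT Plb 2 and 33.8 CPM in WT Plb 1. In WT E2 3 Hhip was the lowest of its group, at 51.6 CPM. Gli3, with 8328 bases, was the lowest of its group in both libraries, at 35.5 CPM in WT Plb 2 and 22.9 CPM in WT E2 3. The part of gene length in the low Ptch1 values was not tested. Without both, Ptch1 differed by -0.59 on average (edgeR adjusted p = 0.0681), by -0.66 under E2 (adjusted p = 0.0561) and by -0.51 under placebo (adjusted p = 0.713), none of which passed. With all libraries the differences under E2 and under placebo were -0.33 and 0.06. With the length trend of each library removed, Ptch1 differed by -0.25 on average, -0.45 under E2 and -0.04 under placebo (edgeR adjusted p = 0.693, 0.574 and 0.987). Itgav (Pearson's r = 0.948), an integrin gene, Gna13 (0.935), a G protein gene, and Tns3 (0.931) had the patterns most like that of Ptch1.

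**Figure D2:**
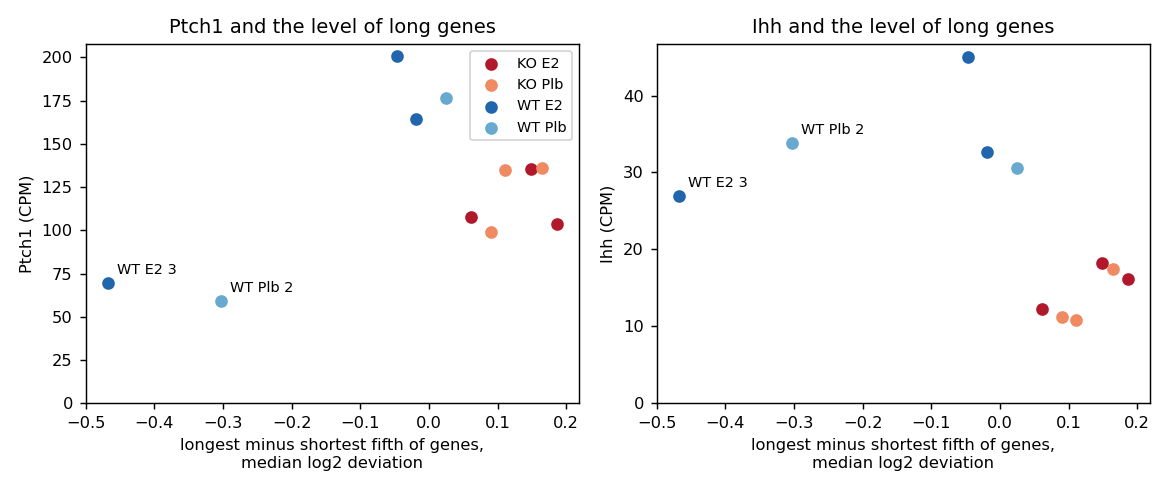
Ptch1 (left) and Ihh (right) in CPM (vertical axes, starting at 0) against the median deviation of the longest genes minus that of the shortest (upper and lower quintile of exon length) (horizontal axes, log2), 1 point per library, coloured by group. WT E2 3 and WT Plb 2 lie far to the left and have the lowest Ptch1, at 69.5 and 59.3 CPM, while their Ihh, at 27.0 and 33.9 CPM, remains above every KO library.

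Hhip, which binds Hedgehog ligands at the cell surface and is induced by them, had 99.3, 62.8 and 50.4 CPM in KO E2 and 29.4, 39.1 and 60.8 CPM in KO Plb, against 106, 82.9 and 51.6 CPM in WT E2 and 33.8 and 45.4 CPM in WT Plb. Hhip was higher under E2 in both genotypes, without overlap in WT (27% of all genes in either direction) and with overlap in KO. Neither difference passed by edgeR. The log2 difference, E2 minus placebo, was 0.71 ± 0.38 in KO (adjusted p = 0.395) and 1.02 ± 0.43 in WT (edgeR adjusted p = 0.342). The authors' deposited table called Hhip for WT E2 over WT Plb, with a log2 fold change of 0.97 and an adjusted p of 0.0102. Between genotypes Hhip differed by -0.03 ± 0.28 on the log2 scale, averaged over agents, with an interval of -0.68 to 0.62. Smo, the transducer, had 112 to 139 CPM in KO E2 and 140 to 159 CPM in KO Plb, against 128 to 151 CPM in WT E2 and 129 to 148 CPM in WT Plb. Its log2 difference between genotypes was 0.02 ± 0.08 (interval -0.15 to 0.19), the narrowest interval of the 9 genes next to that of Pth1r.

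The same within-library test compared output with ligand directly. The log2 ratio of Gli1 to Ihh averaged 2.31 in KO E2 and 2.53 in KO Plb, against 1.41 in WT E2 and 1.35 in WT Plb, a difference of 1.04 with no overlap between 2.04 to 2.78 in KO and 1.10 to 1.66 in WT (exact p = 0.005, the smallest possible, adjusted p = 0.0138). For Ptch1 over Ihh the difference was 1.26, and for Hhip over Ihh it was 1.18, each without overlap and with the same p. The Ihh difference was known when these ratios were chosen and is part of each, so separation was likely in advance. Their p-values are therefore no independent support. The ratios say that the differences of the genes were unequal and not that Gli1, Ptch1 or Hhip was unchanged. Without WT E2 3 and WT Plb 2 the Ptch1 ratio differed by 0.69 (adjusted p = 0.0786), the Gli1 ratio by 1.10 and the Hhip ratio by 1.19 (adjusted p = 0.055 each, where the smallest p possible is larger).

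**Figure D3:**
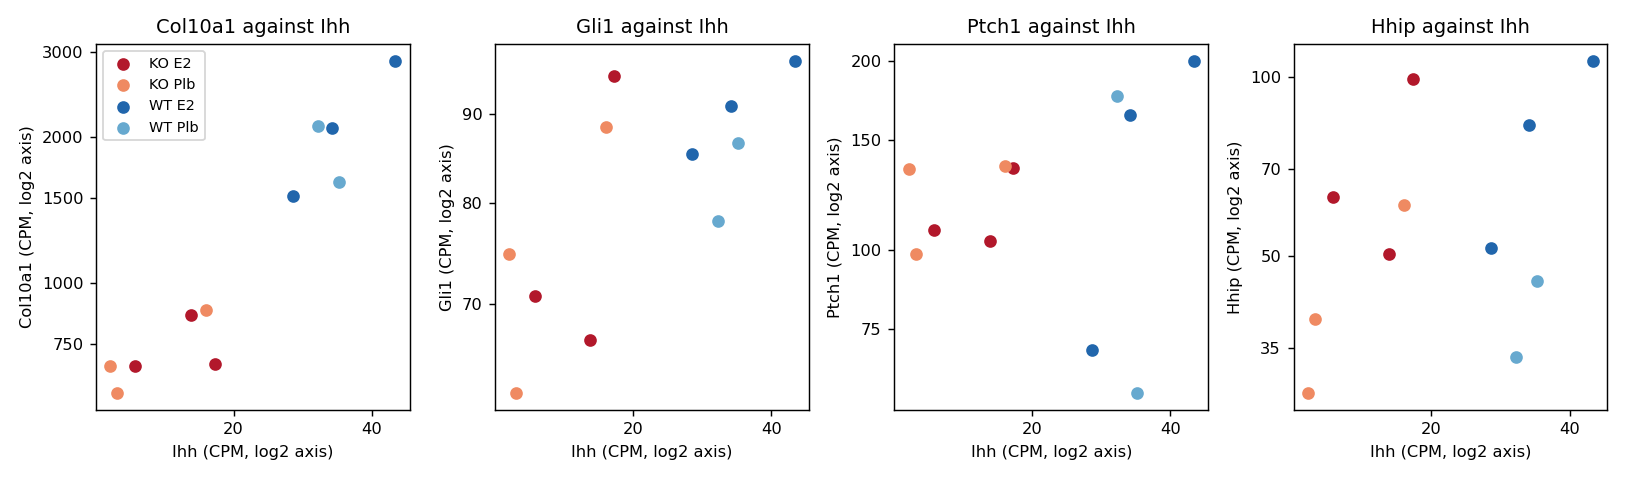
Col10a1, Gli1, Ptch1 and Hhip (vertical axes) against Ihh (horizontal axes), all in CPM on log2 axes, 1 point per library. KO and WT libraries form separate clouds along the Ihh axis and along the Col10a1 axis, and overlap along the Gli1, Ptch1 and Hhip axes.

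Across libraries, 9 pairs of genes were examined. Values of the 3 pairs without Ihh or Pth1r, which separate the genotypes, were pooled over all 11 libraries. Pooled values mix E2 and placebo, as do those within the 6 KO libraries below, and the permutations ignored the groups. With group means removed, Pearson's r was 0.762 for Gli1 and Hhip, 0.275 for Ptch1 and Gli1 and 0.349 for Ptch1 and Hhip, as a description with no p-value. Gli1 and Hhip had a Pearson's r of 0.655 (permutation p = 0.0305, adjusted p = 0.0914 over the 9 pairs) and a Spearman's rho of 0.70 (permutation p = 0.0205, adjusted p = 0.0925). Without the 2 libraries farthest from the median Gli1 level, r was 0.715. Ptch1 and Gli1 had an r of 0.274 (permutation p = 0.414, adjusted p = 0.465) and a rho of 0.536 (permutation p = 0.0944), and without WT E2 3 and WT Plb 2, the libraries farthest from the median Ptch1 level, r was 0.788 (permutation p = 0.0146). Ptch1 and Hhip had an r of 0.332 (permutation p = 0.321, adjusted p = 0.412) and a rho of 0.391 (permutation p = 0.238), and r was 0.340 without the same 2 libraries. Within the 6 KO libraries, Ihh and Hhip had an r of 0.784 (exact permutation p = 0.0597) and a rho of 0.829 (exact p = 0.0583), and r was 0.491 without the 2 libraries farthest from the median. Ihh had an r of 0.687 with Gli1 (exact p = 0.172; rho 0.60, exact p = 0.242) and of 0.372 with Ptch1 (exact p = 0.418; rho 0.543, exact p = 0.297). None of the 6 KO-only pairs passed after adjustment (exact permutation, smallest adjusted p = 0.358), and none is given within the 5 WT libraries, since correlations were reported over 6 or more.

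Of the remaining Gli genes, which carry the signal and are not regarded as its main targets, Gli2 passed no comparison and Gli3 passed only under some alternatives. Gli3, whose protein acts chiefly as a repressor without Hedgehog signal, had 39.9, 36.6 and 39.2 CPM in KO E2 and 48.2, 49.7 and 47.1 CPM in KO Plb, against 30.1, 35.4 and 22.9 CPM in WT E2 and 50.9 and 35.5 CPM in WT Plb. Each E2 group lay below its placebo group without overlap, although WT Plb 2, at 35.5 CPM, lay only just above the highest WT E2 library. In either direction, 24.8% of all genes had no overlap in KO and 27% in WT. By edgeR, Gli3 differed between E2 and placebo by -0.33 ± 0.15 in KO (adjusted p = 0.311) and by -0.55 ± 0.17 in WT (adjusted p = 0.144). Neither passed. Without WT Plb 2 the difference in WT was -0.79 and passed (adjusted p = 0.0438). It also passed with the length trend of each library removed (-0.54, adjusted p = 0.029), and without both WT E2 3 and WT Plb 2 it passed in WT (-0.63, adjusted p = 0.03) and in KO (-0.33, adjusted p = 0.0445). Same-numbered KO libraries deviated together, and in a fit of the KO groups alone with the replicate number as a block, chosen after seeing the data, Gli3 was lower under E2 by a log2 difference of -0.33 and passed (edgeR adjusted p = 0.0301). The authors' deposited table called Gli3 for KO E2 over KO Plb (log2 fold change -0.32, adjusted p = 0.0123) and not for WT E2 over WT Plb (-0.54, adjusted p = 0.236). Between genotypes Gli3 differed by 0.39 ± 0.15 under E2 (adjusted p = 0.128), without overlap, as did 34.6% of all genes in either direction. On average Gli3 differed by 0.27 ± 0.11 (adjusted p = 0.149), which passed when WT Plb 1 was left out (0.41, adjusted p = 0.0379). Gli2, the main activator among the Gli proteins, ran from 22.3 to 24.0 CPM in KO E2 and from 25.2 to 30.9 CPM in KO Plb, against 14.3 to 27.4 CPM in WT E2 and 22.5 to 26.4 CPM in WT Plb. Its log2 difference between genotypes was 0.14 ± 0.14, averaged over agents (adjusted p = 0.574).

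The third question concerned the PTHrP arm. Pth1r, the receptor for PTHrP and parathyroid hormone, was lower in KO, most clearly under E2. It had 611, 483 and 548 CPM in KO E2 and 623, 625 and 618 CPM in KO Plb, against 796, 806 and 835 CPM in WT E2 and 791 and 664 CPM in WT Plb. No KO library reached the lowest WT library, where 5.26% of all genes had no overlap in either direction. The log2 difference in Pth1r, KO minus WT, was -0.57 ± 0.10 under E2 (95% interval -0.78 to -0.36; adjusted p = 0.00318), a 1.48-fold lower level in KO. Under placebo it was -0.23 ± 0.11 (interval -0.46 to 0.01; adjusted p = 0.545), and on average -0.40 ± 0.07 (adjusted p = 0.00822). The authors' deposited table called Pth1r for KO E2 over WT E2 (log2 fold change -0.57, adjusted p = 1.24e-06) and not for KO Plb over WT Plb (-0.22, adjusted p = 0.643).

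Estradiol went with lower Pth1r in KO and higher Pth1r in WT, in both cases without overlap between the E2 and placebo libraries. In either direction, 24.8% of all genes had no overlap in KO and 27% in WT. The nearest WT libraries were at 796 CPM under E2 and 791 CPM under placebo. The log2 differences, E2 minus placebo, were -0.18 ± 0.10 in KO and 0.16 ± 0.11 in WT, and neither passed. The difference between both effects was -0.34 ± 0.15 (edgeR adjusted p = 0.368), so the response of Pth1r to E2 was not shown to differ by genotype.

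Pth1r is expressed by chondrocytes and by osteoblasts, and its ratio to markers of each was set beside it. Against 12 osteoblast and osteocyte genes summed, the log2 ratio of Pth1r averaged -6.95 in KO E2 and -6.99 in KO Plb, against -6.14 in WT E2 and -6.61 in WT Plb. Its difference was -0.59 without overlap (exact p = 0.005, adjusted p = 0.0138), and without WT E2 3 and WT Plb 2 it was -0.49 and did not pass (exact permutation, adjusted p = 0.055). The osteoblast sum in the ratio averaged 67818 CPM in KO E2 and 79000.2 CPM in KO Plb, against 57638 CPM in WT E2 and 71590.5 CPM in WT Plb, so its mean was itself higher in KO under both agents, with overlapping ranges. Against the chondrocyte genes the difference was 0.14 (exact p = 0.51) and against the hypertrophic and mineralizing genes -0.05 (exact p = 0.46), with overlap. Of the 12 osteoblast and osteocyte genes, 9 had a positive difference on average, with a median of 0.16, and 0 were called higher and 1 lower. That gene was Sost, an osteocyte inhibitor of Wnt signalling (log2 difference -0.52 ± 0.09, adjusted p = 0.00826), which averaged 40.9 CPM in KO E2 and 49.2 CPM in KO Plb, against 101 CPM in WT E2 and 40.7 CPM in WT Plb, so that only under E2 was its KO mean the lower one. The genes with patterns most like that of Pth1r were Mrpl4 (Pearson's r = 0.975), a mitochondrial ribosomal protein gene, Ap5s1 (0.956) and Ctsd (0.954), the lysosomal protease cathepsin D, again as a ranking with no p-value.

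Pthlh, the ligand of this arm, was the lowest of the 9 genes per kb, with 30 to 90 counts per library. It had 1.67, 2.73 and 2.14 CPM in KO E2 and 2.28, 4.22 and 2.97 CPM in KO Plb, against 1.18, 1.79 and 1.36 CPM in WT E2 and 2.75 and 3.47 CPM in WT Plb. The WT E2 libraries lay below the WT Plb libraries without overlap, where 27% of all genes had none in either direction. In KO the groups overlapped. Each KO E2 library was below the KO Plb library of the same number, but the labels mention no pairing, so this is a description only. By edgeR, Pthlh differed between E2 and placebo by -0.53 ± 0.29 in KO (adjusted p = 0.394) and by -1.10 ± 0.33 in WT (95% interval -1.82 to -0.39; adjusted p = 0.132), and neither passed. With the KO groups alone and the replicate block the difference in KO was -0.52 and did not pass (adjusted p = 0.196). Between genotypes Pthlh differed by 0.59 ± 0.30 under E2 (interval -0.06 to 1.25; adjusted p = 0.23) and by 0.02 ± 0.32 under placebo. The log2 ratio of Pthlh to Pth1r was higher in KO by 0.67 (exact p = 0.045, adjusted p = 0.0707), which did not pass. Genes patterned like Pthlh were Ndn (Pearson's r = 0.932), Ppl (0.932) and Sfrp2 (0.931), and a ranking against so low a gene carries its counting noise.

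Counted over the 9 genes, KO against WT averaged over agents called 2, both lower, where 7.36% of all genes tested were called, 4.59% higher and 2.77% lower. Under E2 it called 2, both lower, beside 11.5% of all genes, 7.27% higher and 4.2% lower. Under placebo edgeR called 0 of the 9, beside 0.00688% of all genes, while DESeq2 called 1 and limma-voom 0. At an unadjusted edgeR p under 0.05 there was 1 of the 9 under placebo, beside 9.21% of all genes. E2 against placebo called 0 in KO, beside 2.73% of all genes (2.36% higher, 0.365% lower). In KO it had 1 at an unadjusted edgeR p under 0.05, beside 16.5% of all genes. With the KO groups alone and the replicate block it called 1, Gli3, with 1090 genes called in place of 396, and it changed no other call named here. In WT it called 0, beside 1.55% (0.654% higher, 0.895% lower), with 3 at an unadjusted p under 0.05. The interaction of genotype and E2 called 0, beside 1.15% (0.84% higher, 0.31% lower). It had 1 at an unadjusted edgeR p under 0.05, beside 11.6% of all genes. DESeq2 and limma-voom called 0 in these 3 comparisons too. Groups without overlap were found for 2 of the 9 genes in KO against WT over both agents (5.26% of all genes), for 3 under E2 (34.6%) and for 2 under placebo (27%), and for 4 in E2 against placebo in KO (24.8%) and 4 in WT (27%). The median log2 difference of the 9, KO minus WT averaged over agents, was -0.03, beside 0.00 over all genes.

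**Figure D4:**
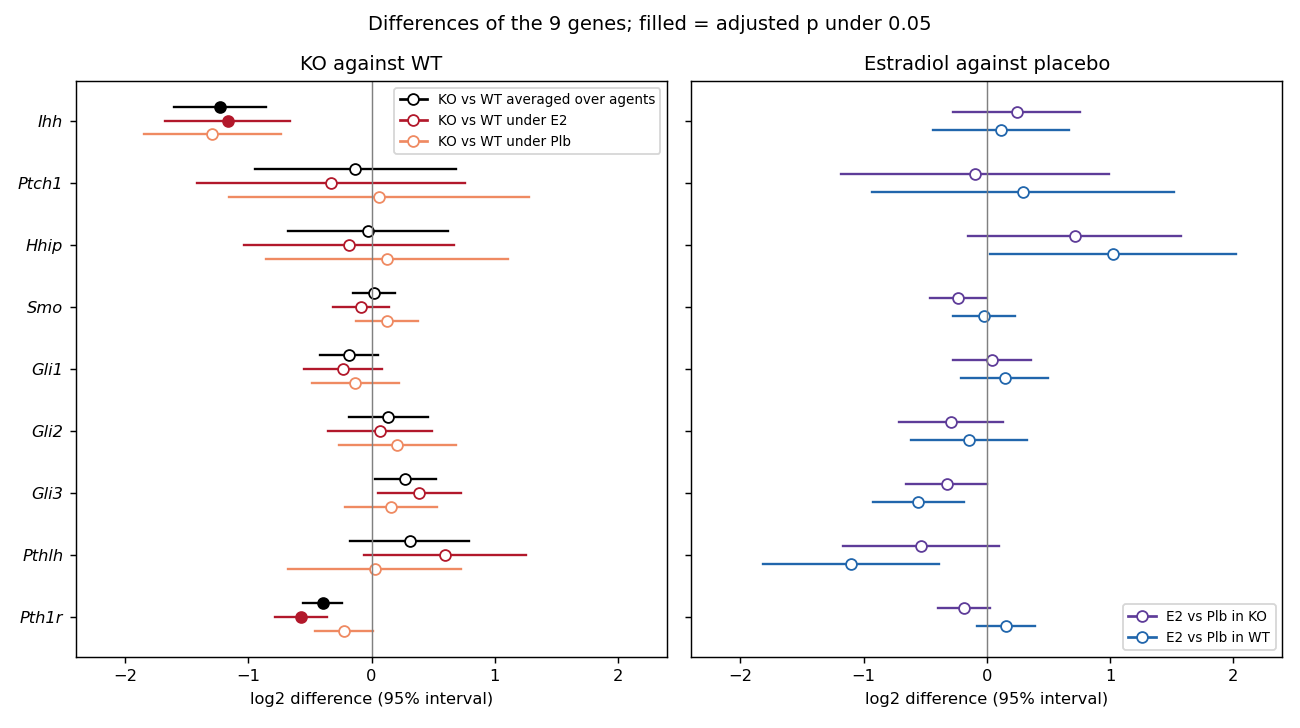
Log2 differences of the 9 genes with 95% intervals (horizontal axes), for KO against WT (left) and E2 against placebo (right); a filled point has an edgeR adjusted p under 0.05. Only Ihh and Pth1r have filled points, both below 0 in KO against WT, and no gene has one for E2 against placebo.

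The rest of both pathways was described by 5 lists. Among 7 measured genes for other Hedgehog ligands and ligand release, KO against WT averaged over agents called 0 higher and 1 lower, with a median log2 difference of 0.17. That gene was Scube3, a secreted protein of a family that helps release Hedgehog ligands. Scube3 averaged 3.04 ± 0.69 CPM in KO E2 and 2.53 ± 0.69 CPM in KO Plb, against 7.67 ± 3.22 CPM in WT E2 and 4.30 ± 0.40 CPM in WT Plb (SD). Its log2 difference was -1.04 ± 0.24 on average (adjusted p = 0.0273) and -1.32 ± 0.32 under E2 (adjusted p = 0.0224). Both passed by a narrow margin. Leaving out KO E2 1, KO E2 2, WT E2 1 or WT E2 2 raised the adjusted p under E2 to between 0.0671 and 0.0852. Leaving out any of these, KO Plb 1, KO Plb 2 or WT Plb 2 raised that of the average to between 0.0515 and 0.0697. By limma-voom with all libraries neither passed (adjusted p = 0.0744 under E2 and 0.0796 on average). Dhh, the ligand best known from testis and nerve, was lower in KO under E2 (-1.21 ± 0.32, adjusted p = 0.0304) at about 1 CPM, and that call was lost without KO E2 1, KO E2 2, WT E2 2 or WT E2 3 (adjusted p up to 0.11). Shh had 0 counts in all 11 libraries, which allows up to 0.118 to 0.204 CPM depending on the library. Shh was therefore not detectable at this depth.

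Of 6 measured co-receptors and other receptors, KO against WT averaged over agents called 1 higher and 0 lower, with all 6 differences positive and a median of 0.31. Gas1, a membrane-anchored co-receptor that binds Hedgehog ligands, averaged 115 ± 4.25 CPM in KO E2 and 147 ± 16.7 CPM in KO Plb, against 86.1 ± 0.81 CPM in WT E2 and 111 ± 7.42 CPM in WT Plb (SD). Gas1 was higher in KO by 0.41 ± 0.06 on average (adjusted p = 0.00356) and by 0.42 ± 0.09 under E2 (adjusted p = 0.00878). Gas1 was lower under E2 in KO by a log2 difference of -0.35 ± 0.09 (adjusted p = 0.0495). Leaving out any 1 of the 6 KO or the 3 WT E2 libraries ended that call. Limma-voom (adjusted p = 0.0618) and a fit of the KO groups alone without a block (edgeR adjusted p = 0.0826) ended it too.

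Of 23 measured genes of signal transduction and the cilium, where Smo acts, KO against WT averaged over agents called 1 higher and 0 lower, with a median of 0.05. This was Adrbk1, which encodes the kinase GRK2 that acts on Smo and on receptors coupled to G proteins. Adrbk1 had 158, 173 and 142 CPM in KO E2 and 107, 112 and 97.4 CPM in KO Plb, against 85.1, 79.2 and 96.3 CPM in WT E2 and 105 and 107 CPM in WT Plb. KO E2 stood above all other groups. Adrbk1 rose under E2 in KO by 0.58 ± 0.10 (adjusted p = 0.00872) and was higher in KO than in WT under E2 by 0.86 ± 0.10 (adjusted p = 0.000203). Its response to E2 differed between genotypes by 0.86 ± 0.14 (adjusted p = 0.0121). That difference narrowly missed without WT E2 1 (adjusted p = 0.0511) and without WT Plb 2 (adjusted p = 0.0562).

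Among 17 measured genes reported as Hedgehog targets in other tissues, KO against WT averaged over agents called 0 by edgeR, 3 by DESeq2 and 0 by limma-voom. The median was 0.09, and 7 of the 17 had an unadjusted p under 0.05, beside 27.2% of all genes. Under E2, KO against WT called 2 higher and 1 lower by edgeR. Hsd11b1, a glucocorticoid-activating enzyme, was higher (3.78 ± 0.80, adjusted p = 0.0129), with 1.79, 8.67 and 3.22 CPM in KO E2, against 0.08, 0.32 and 0.58 CPM in WT E2. Sfrp1, a Wnt antagonist, was higher (0.63 ± 0.17, adjusted p = 0.0329), and the transcription factor gene Mycn was lower (-0.74 ± 0.21, adjusted p = 0.0398). With the length trend of each library removed, Mycn did not pass (edgeR adjusted p = 0.0505). Ccnd2, a cyclin, was lower under E2 in WT (-0.82 ± 0.17, adjusted p = 0.0349). Limma-voom (adjusted p = 0.0564) and the replicate block (edgeR adjusted p = 0.0633) did not call Ccnd2. The calls of these 4 genes also rested on single libraries. Without WT E2 2 the adjusted p of Hsd11b1 was 0.0505. Leaving out any 1 of the WT E2 libraries or WT Plb 1 ended the call of Ccnd2 (adjusted p 0.0841 to 0.163). Leaving out any 1 library of either E2 group, KO Plb 1 or KO Plb 2 ended that of Mycn (0.052 to 0.117). Leaving out KO E2 2, KO E2 3 or any 1 WT E2 library ended that of Sfrp1 (0.0578 to 0.127).

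Among 21 measured genes of PTHrP and parathyroid hormone receptor signalling, KO against WT averaged over agents called 1 higher and 0 lower, with a median of 0.10. Creb1, a transcription factor activated through cyclic AMP, was higher in KO by 0.33 ± 0.08 on average (adjusted p = 0.0239) and by 0.45 ± 0.10 under E2 (adjusted p = 0.0134). With the length trend of each library removed, Creb1 was higher by 0.16 on average and by 0.28 under E2, and neither passed (adjusted p = 0.159 and 0.0539). Both calls were also lost without WT E2 1 (adjusted p = 0.0511 and 0.0508), and that of the average without WT Plb 2 (adjusted p = 0.064). Rgs2, a brake on G protein signalling, had 28.2, 46.2 and 27.9 CPM in KO E2 and 19.95, 19.3 and 13.2 CPM in KO Plb, against 15.2, 16.004 and 19.0 CPM in WT E2 and 15.7 and 19.5 CPM in WT Plb. Rgs2 was higher in KO under E2 by 1.03 ± 0.22 (adjusted p = 0.0119), a call lost without WT E2 1 (adjusted p = 0.0527). It rose under E2 in KO by 0.96 ± 0.22 (adjusted p = 0.0422), lost without KO E2 2 (0.69, adjusted p = 0.109), without any 1 KO Plb or without any 1 WT E2 library. Limma-voom (adjusted p = 0.0508) and a fit of the KO groups alone without a block (edgeR adjusted p = 0.122) did not call that rise. Pth and Pth2, the other ligands, had 0 counts in all 11 libraries.

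**Figure D5:**
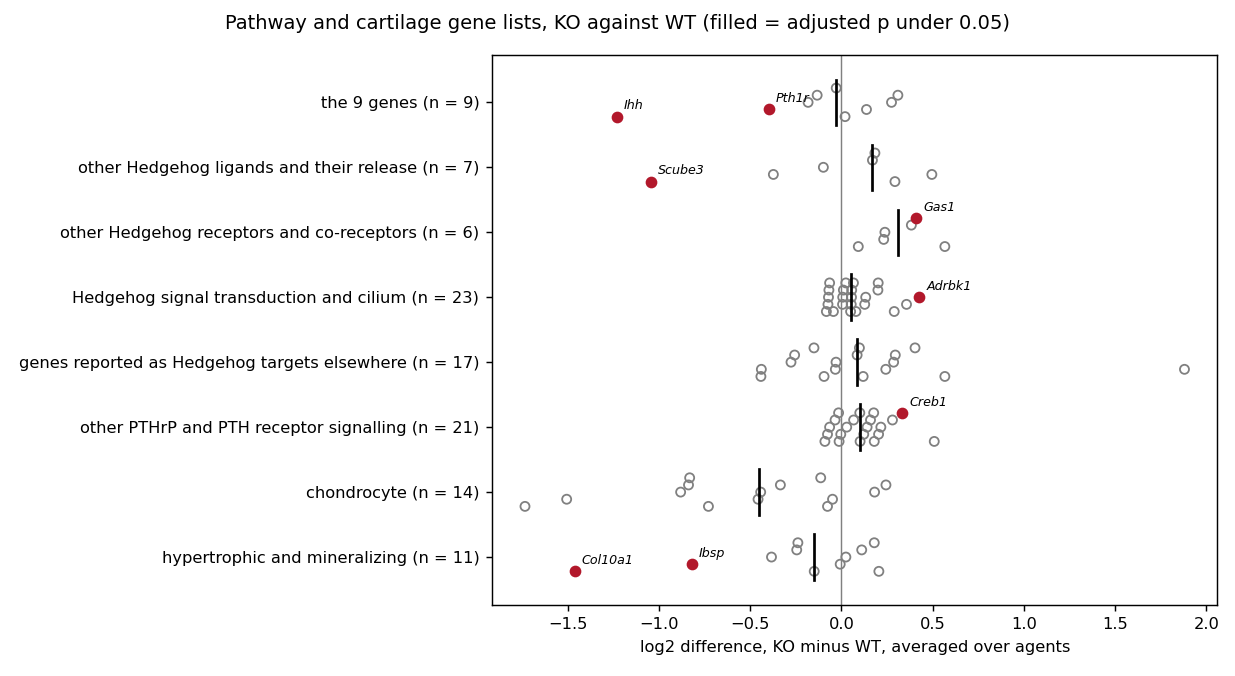
Log2 difference, KO minus WT averaged over agents (horizontal axis), of each measured gene. Rows are the 9-gene set, the 5 lists of other pathway genes and the lists of chondrocyte and of hypertrophic and mineralizing genes. Filled points have an edgeR adjusted p under 0.05 and black ticks are list medians. Ihh, Pth1r, Scube3, Col10a1 and Ibsp are called lower, and Gas1, Adrbk1 and Creb1 higher.

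Markers of other cells differed between genotypes as well, some of them mainly under E2. All 10 measured B lineage genes were called higher in KO on average, with sums of 177 to 309 CPM in KO E2 and 89.1 to 196 CPM in KO Plb, against 18.6 to 22.1 CPM in WT E2 and 56.8 to 64.7 CPM in WT Plb. Of 12 neutrophil and myeloid genes, 8 were called higher in KO under E2 by edgeR, 12 by DESeq2 and 0 by limma-voom. On average 0 were called by edgeR (10 at an unadjusted p under 0.05), 7 by DESeq2 and 0 by limma-voom. Their sums were 1292 to 4682 CPM in KO E2, against 8.49 to 44.4 CPM in WT E2. Under placebo the sums overlapped, at 1.48 to 753 CPM in KO Plb and 217 to 485 CPM in WT Plb. Of 8 osteoclast genes, 5 were called lower in KO on average, and of 8 endothelial genes 3 were. Both differences lay mainly under E2. The median log2 difference of the osteoclast genes, KO minus WT, was -0.57 under E2 and -0.08 under placebo. That of the endothelial genes was -0.30 under E2 and 0.01 under placebo. Of 14 muscle genes 1 was called lower, Tnnc1, with sums of 12.8 to 1257 CPM over the libraries and the highest in WT Plb 2. Of 11 fibrous and superficial layer genes 1 was called higher, Dcn. Of 4 erythroid and 10 dividing cell genes 0 were called by edgeR on average (3 and 2 at an unadjusted p under 0.05). DESeq2 called 3 and 1 of these on average, and limma-voom 0. The median log2 difference of the dividing cell genes, KO minus WT, was 0.39 under E2 and -0.34 under placebo. The part of these cells, and of the hypertrophic cells above, in the differences of Ihh and Pth1r was not tested. For KO against WT averaged over agents, 27.2% of all genes had an unadjusted p under 0.05.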

How the data were processed

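The submitters' processing notes name TopHat, bcl2fastq 2.17 and, as genome build, mm9. How reads were counted, with which annotation and strand setting, is not given in the sources used here. Whole-number counts per gene symbol were deposited with the authors' tables of pairwise comparisons, in which, per the file headers, effects are log2 fold changes with raw and adjusted p-values. All 11 count columns matched samples by name.

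In R 4.3.3, edgeR 4.0.16 kept 14531 genes (filterByExpr with a minimum count of 10 and a minimum total of 15) holding 99.98% of counts, scaled them by TMM and fitted 1 coefficient per group over all 11 libraries (robust quasi-likelihood, 7 residual degrees of freedom). Benjamini-Hochberg adjustment ran over all genes tested and calls used 0.05. The common biological coefficient of variation was 15.8%. Alternatives used DESeq2 1.42.0 and limma 3.58.1. On simulated data, a change of 1 on the log2 scale was recovered for 74.7% of genes in the E2 contrast of KO and 66.7% in that of WT. Correlations used log2 CPM with a prior count of 2 and 100000 resamples, and permutation tests ran in Python 3.11.15.

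The 9 genes, the gene lists and the rule naming genes were chosen with earlier results of these data known. Named genes were the 9, every called gene of the pathway lists, of each marker list up to 4 genes called where any of the 9 was, the defining cartilage markers, and for 5 of the 9 genes the 3 with the highest Pearson's r. Replicate numbers come from the titles, and the labels do not mention pairing. Same-numbered libraries of KO Plb and KO E2 all correlated above 0.1 in their deviations from group means, and those of no other combination of groups all did. No 2 libraries of a group matched within sampling noise. The value of 1 marker gene is not reported here.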

Additional observations from a re-analysis of the deposited data

Results flagged for a closer look

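The response to E2 differed between genotypes, by the test of the difference itself, for the 8 genes given here, none of them among the 9 Hedgehog and PTHrP genes. Values are log2, the E2 effect in KO minus that in WT. Adrbk1, the GRK2 gene of the Hedgehog transduction list, had 0.86. The marker genes had -1.58 for Sost (osteocyte), -0.60 for Egfl7 (endothelial) and 1.21 for Rrm2 (dividing cells). Of the B lineage genes, Vpreb3 had 6.18, Pax5 3.87 and Rag1 6.68, and Fcnb, a neutrophil gene, had 10.83. In WT E2 the mean level of these 4 genes was between 0.0132 CPM (Fcnb) and 0.210 CPM (Pax5), and where it is under 3 counts the size of the value depends on the prior count. Of 19 alternatives, 12 lost the call of Egfl7 (adjusted p up to 0.107), 10 that of Fcnb (up to 0.279), 8 that of Rag1 (up to 0.372), 6 that of Pax5 (up to 0.165), 2 each those of Vpreb3 (up to 0.122) and Adrbk1 (up to 0.0562) and 1 that of Rrm2 (0.072), all by edgeR or limma-voom, and none lost that of Sost.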

How the results depend on the processing

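Over 21 alternatives (another scaling, tool or filter, the compared groups alone, a replicate block, Rn45s left out, each library left out in turn, and 3 chosen after seeing the data), the 9 genes in 6 comparisons gave 1071 values, of which 1013 kept their direction and side of the threshold, 7 newly passed and 51 changed sign. No sign change passed a test (smallest adjusted p 0.321). Ihh and Pth1r kept their calls in KO against WT under E2 (adjusted p up to 0.0418 and 0.0143) and on average (up to 0.0196 and 0.0277). The count of called genes among the 9 was 1 and not 0 under placebo with DESeq2 (Ihh). It was 1 for E2 in WT with the length trend removed and without WT Plb 2 and WT E2 3, and 1 for E2 in KO without these 2 and with the KO groups alone and a block (Gli3), and leaving out 1 library gave 0 to 1 for E2 in WT.

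Without WT Plb 2 and WT E2 3, signs turned for Gli2 (-0.04 on average, -0.17 under E2), Gli3 (-0.07 under placebo), Ptch1 (-0.51 under placebo) and the Ihh interaction (-0.11). With the length trend removed they turned for Gli2 under E2 (-0.04), Hhip (-0.06) and Ptch1 (-0.04) under placebo, and with limma-voom for Ptch1 on average (0.02) and Pthlh under placebo (-0.01). The replicate block turned Hhip (0.02), Ptch1 (0.04) and Smo (0.00) on average. Leaving out 1 library, KO against WT on average ran from -0.20 to 0.10 for Hhip, -0.42 to 0.36 for Ptch1, -0.03 to 0.07 for Smo and -0.16 to 0.07 for Sox9. Under E2 it ran from -0.17 to 0.24 for Gli2, -0.51 to 0.07 for Hhip and -0.15 to 0.01 for Smo. Under placebo it ran from -0.07 to 0.44 for Gli3, -0.21 to 0.35 for Hhip, -0.51 to 1.05 for Ptch1 and -0.24 to 0.21 for Pthlh. E2 against placebo ran from -0.13 to 0.17 for Gli1 in KO, and in WT from -0.33 to 0.09 for Gli2, -0.11 to 0.27 for Ihh, -0.28 to 1.28 for Ptch1 and -0.12 to 0.08 for Smo. The interaction ran from -0.27 to 0.03 for Gli1, -0.38 to 0.03 for Gli2, -0.06 to 0.46 for Gli3, -0.63 to 0.02 for Hhip, -0.03 to 0.38 for Ihh and -1.39 to 0.19 for Ptch1. The cause was not tested.

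Same-numbered libraries of different groups correlated from -0.203 to 0.386 in their deviations from group means, above 0.1 in 7 of 15 pairs, against 3 of 30 with different numbers. All 3 pairs of KO Plb and KO E2 were above 0.1 (0.142 to 0.386), and in no other combination of groups were all pairs above it. Those of WT E2 and KO E2, at 0.0505 to 0.0854, still lay above pairs with different numbers, at -0.0551 to -0.0148. Deviations cancel within a group, so the pairs are not independent. Whether the numbers mark a pairing was not tested. With the replicate block over all groups, 2 of the 9 genes were called in KO against WT under E2 and on average and 0 in the other comparisons. Over all genes, the number called ran from 867 to 2225 for KO against WT under E2 (1667 in the main fit), 403 to 1937 on average (1069), 1 to 50 under placebo (1), 105 to 1090 for E2 in KO (396), 113 to 656 for E2 in WT (225) and 52 to 561 for the interaction (167). Depth limits Pthlh, at 30 to 90 counts per library.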
